A study of Mus musculus with 4 samples.

Results

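Ccdc117, Nectin3, Cmss1, Cep85, Ddx19a and Cage1 were 6 genes of the 37718 gene rows in the tables. They were picked because an exon segment or a splice junction of each had been seen to change its share of the gene in Tdrd6-/- cells. Their rows numbered 257 of 850424, made up of 1 gene total each, 109 exon segments, 70 annotated junctions, 10 junctions absent from the annotation and 62 introns. An exon segment is a stretch of exon that no annotated exon start or end divides, the ends of transcripts included. A junction count is the number of fragments that span a removed intron. Since the same contrast chose the genes, every change between genotypes below describes these 4 samples and is no independent evidence.

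Total RNA depleted of ribosomal RNA was sequenced from testis cells of mice at 20 dpp. The cells carry hCD4 under the endogenous Tdrd6 promoter and were pulled out with magnetic beads, so the mark that selects the cells is driven by the locus that is mutated. 2 samples were Tdrd6+/-, with 1 working copy of the gene, and 2 were Tdrd6-/-, with none. Each sample pooled at least 4 mice. No wild-type sample was analysed here.

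Gene rows summed to between 26454326 and 31388750 fragments per sample. Tdrd6 itself was counted at 33220 and 39322 in Tdrd6+/- and at 359 and 400 in Tdrd6-/-, as the labels say. All 8 markers of late meiotic prophase were present, with summed levels of 7900 and 8221 CPM (fragments scaled by library size with TMM) in Tdrd6+/- and 8237 and 9410 CPM in Tdrd6-/-. Of these 8, Sycp1 rose by 0.60 ± 0.16 and Piwil1 fell by 0.44 ± 0.13 on the log2 scale. Markers of spermatogonia summed to between 15.2 and 19.9 CPM, those of Leydig cells to between 7.11 and 9.20 CPM, those of Sertoli cells to 66.9 and 68.1 CPM in Tdrd6+/- and 79.9 and 85.1 CPM in Tdrd6-/-, and those of spermatids to 3.25 and 5.995 CPM and 9.80 and 8.28 CPM. Nearly all of the spermatid sum was Acrv1, which rose by 0.96 ± 0.27, while Prm1, Prm2, Tnp1 and Tnp2 had 0 to 10 counts a sample. Most of the Sertoli sum was Clu, at 38.5 and 42.7 CPM in Tdrd6+/- and 47.4 and 60.4 CPM in Tdrd6-/-. Sox9 was the only Sertoli marker with a fall, from 2.90 and 1.87 CPM to 1.17 and 1.59 CPM, and 0 of the 5 were called. The Leydig marker Insl3 had no row of its own and is not in that sum. The part of these other cells in the results was not tested. Intron counts came to 0.527 and 0.419 per gene count in Tdrd6+/- and 0.425 and 0.306 in Tdrd6-/-, so the first Tdrd6+/- sample had the most intronic RNA and the second Tdrd6-/- sample the least.

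Removal of introns is carried out by the spliceosome, whose core Sm proteins bear arginine methyl marks that Tudor domains recognise, and TDRD6 is a germ cell protein with such domains. A gene can make different RNAs by choosing among splice donors and acceptors, by starting at another first exon, or by ending at another last exon with its own cleavage and polyadenylation site. If 1 such choice shifts, the segments and junctions particular to 1 form should move together and those of the competing form should move the other way, while features common to both stay put. The profiles were read with this pattern in view.

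The junctions that carry the clearest comparisons are shown here as the spliced RNA reads, 5′ to 3′, from GENCODE M21 transcripts (GRCm38). The last bases of the upstream exon are in lower case and the first bases of the downstream exon in capitals. All genes shown lie on the minus strand, and segments are numbered along the chromosome, so segment 1 is the 3′ end of each gene. Positions and transcript names were assigned through equal numbers of segments and junctions in M21, since the counted rows carry none. The Cep85 pair leaves 1 donor for different acceptors, the Cage1 pair reaches 1 acceptor from different donors, and the Ddx19a and Ddx19b pair compares a gene with its paralog.
Cep85 junction 45: cagacattgcagaggATTTTTGCAGCTCAA
Cep85 junction 46: cagacattgcagaggGGCTACATGACACTG
Cage1 junction 32: tctctagaaacgttgAGGCCTTCTGTCACT
Cage1 junction 33: cgatggatcatggaaAGGCCTTCTGTCACT
Ddx19a junction 18: tccaggagcattttaATAAGAAGATAGAAA
Ddx19b junction 15: tccaggagcattttaATAAGAAGATAGAAA

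The count of each feature was set against the remaining count of the same gene, and the change of that ratio between genotypes is called the usage change (log2, Tdrd6-/- minus Tdrd6+/-, with its standard error). For an intron the remaining count was that of the gene's other introns. At a false discovery rate of 0.1, 13 of the 124 tested segments and junctions of these genes were called, 7 higher and 6 lower in Tdrd6-/-. Among all genes 0.21% of 153974 tested features were called, 0.139% higher and 0.0714% lower. Among introns 3 of 35 tested in these genes were called, all lower, beside 1.94% of 28903 among all genes, 0.716% higher and 1.22% lower. The median usage change of the tested segments and junctions was 0.02 in the 6 genes and 0.02 over all genes tested. Since the genes were picked on this contrast, nothing is read from these shares. The counts rested on single samples and on the fit. Without the first Tdrd6+/- sample 5 segments and junctions and 0 introns were called, without the second Tdrd6-/- sample 8 and 1, and with 10 rounds of fitting mean and dispersion 20 and 8. The gene totals themselves moved little. 0 of the 6 totals were called by edgeR's quasi-likelihood test, beside 4.8% of 16555 genes (1.02% higher and 3.78% lower), and DESeq2 called 0. In edgeR's test 1 of the 6 was under an unadjusted p of 0.05, and the share of all genes under it is not given here.

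**Figure D1:**
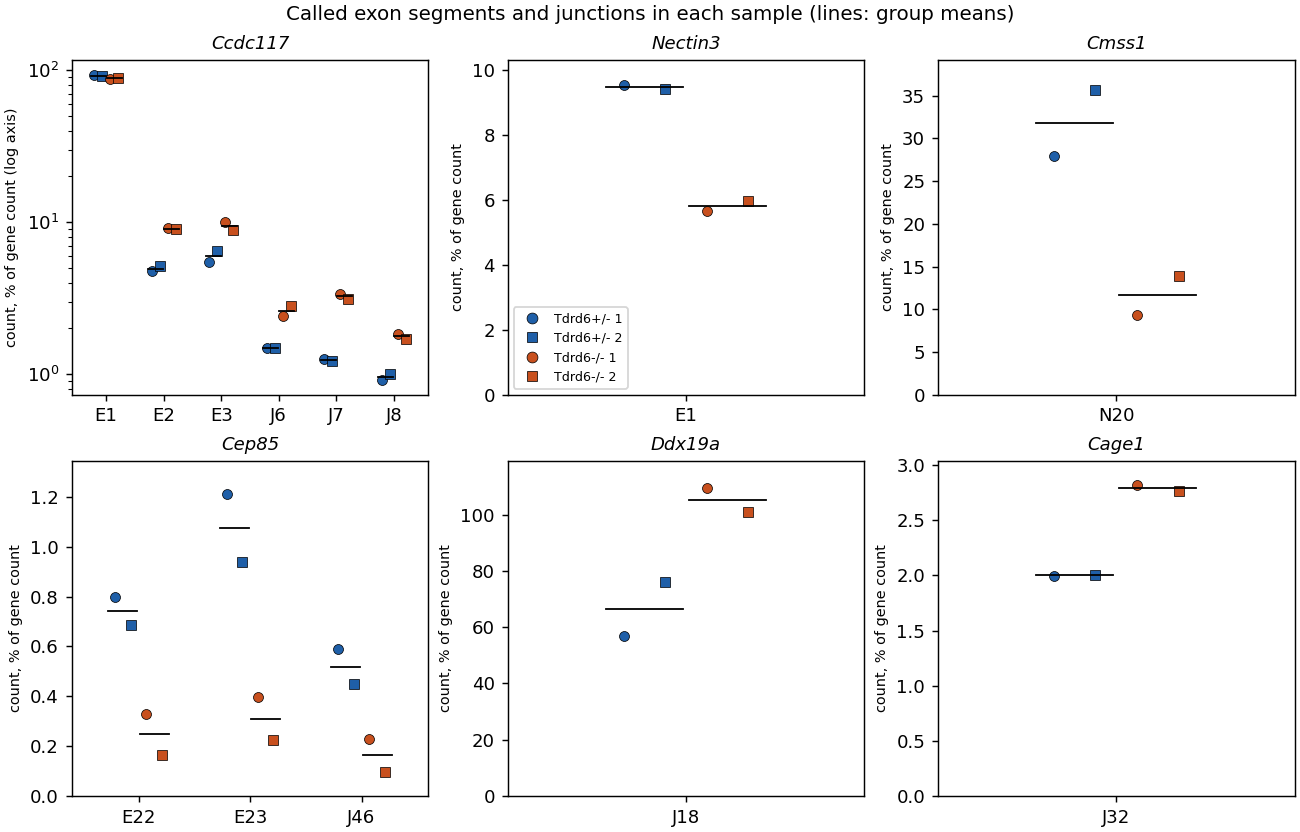
Counts of the 13 called exon segments (E), annotated junctions (J) and unannotated junctions (N) as a percentage of the gene's count (y axis, log scale for Ccdc117 only) in each sample, with lines at the group means. In each of the 13 features the Tdrd6+/- and Tdrd6-/- samples lie apart, as the choice of the genes made likely.

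In the plot of shares by sample, a fragment may count on several segments and junctions of its gene, so shares of a gene add up to more than 100 percent. Relative to the mean share in Tdrd6+/-, the mean share in Tdrd6-/- was 0.289 for Cep85 segment 23, 0.366 for Cmss1 junction 20 and 1.40 for Cage1 junction 32.

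Cep85 showed the profile closest to a single choice between forms. CEP85 is a centrosomal protein that restrains the kinase NEK2 and works with STIL in centriole duplication. Its gene lies on chromosome 4 from 134129858 to 134187112 and was counted at 13778 and 13397 in Tdrd6+/- and 15805 and 17488 in Tdrd6-/-, a log2 fold change of 0.06 ± 0.13 (SE). Of its 50 segments and junctions, 38 were tested and 3 were called, all lower.

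The 3 called features of Cep85 all belong to 1 exon. Segments 22 and 23, from 134164112 to 134164627 and from 134164628 to 134164757, form the last exon of transcript Cep85-207, a short form annotated as a processed transcript. Segment 22 is found in no other transcript and holds no annotated coding base, while segment 23 is also an internal exon of Cep85-205, a form annotated as a target of nonsense-mediated decay. Segment 22 was counted at 110 and 92 in Tdrd6+/- and 52 and 29 in Tdrd6-/-. Segment 23 was counted at 167 and 126 in Tdrd6+/- and 63 and 39 in Tdrd6-/-. Both Tdrd6-/- samples were below both Tdrd6+/- samples in each segment, and the usage changes were -1.63 ± 0.32 and -1.82 ± 0.29 (SE).

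Junction 46, which leads into this exon, fell with it. It was counted at 81 and 60 in Tdrd6+/- and 36 and 17 in Tdrd6-/-, a usage change of -1.72 ± 0.39. The calls of junction 46 and segment 22 were lost without the second Tdrd6-/- sample, and segment 23 was still called. Without the first Tdrd6+/- sample the 3 features had no adjusted p, nor had junction 46 with the replicate block or the crossed pairing. Junction 45 leaves the same donor and skips the exon, and its counts were 375 and 400 in Tdrd6+/- and 444 and 585 in Tdrd6-/-, a usage change of 0.11 ± 0.14 that was not called. Of the fragments leaving this donor, 17.8% and 13.04% went into the exon in Tdrd6+/- and 7.50% and 2.82% in Tdrd6-/-, with means of 15.4% ± 3.34 and 5.16% ± 3.31 (SD, n = 2). The genotypes did not overlap, although the Tdrd6-/- samples differed from each other by about as much as their upper value did from the lower Tdrd6+/- value.

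The annotated junction out of this exon was hardly seen. Junction 44, which would join it to the next exon in Cep85-205, was counted once in 1 Tdrd6+/- sample and not in the other samples. Unannotated junctions 49 and 50 of Cep85 were counted at 48, 52, 56 and 47 and at 37, 24, 27 and 31. The tables give no position for them, so whether either leaves this exon cannot be told. Whether the RNA ends in this exon was not tested. The annotated end of Cep85-207 carries the polyadenylation hexamer AATAAA, in capitals below, 21 bases from the last base. This hexamer was found in the last 50 bases of 40.5% of 58797 protein-coding transcripts, and the match is a description of the letters only.
Cep85-207 end: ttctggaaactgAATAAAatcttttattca

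The introns on both sides of the exon moved the same way. Intron 13, between this exon and segment 21, the next annotated segment downstream, was counted at 227 and 170 in Tdrd6+/- and 103 and 50 in Tdrd6-/-. Intron 14, between it and the exon upstream, was counted at 155 and 120 in Tdrd6+/- and 84 and 42 in Tdrd6-/-. Their usage changes within the introns of Cep85 were -1.26 ± 0.28 and -0.9987 ± 0.29, and both were called. Per kb of length, intron 13 held 31.6, 23.6, 14.3 and 6.95 counts in the 4 samples and segment 22 held 213, 178, 101 and 56.2, so the exon stood well above its neighbouring intron in every sample. None of the other 8 tested introns of Cep85 was called. Intron 13 was not called without the first Tdrd6+/- sample (-1.12) or the second Tdrd6-/- sample (-0.90). With the dispersion trend on the mean of feature and rest its call was lost too (-1.28). Intron 14 was the weaker call, and was lost without either Tdrd6+/- sample, without the second Tdrd6-/- sample, with the crossed pairing, and with the dispersion trend on the mean of feature and rest at 1 or 10 iterations. The exons before and after in the full-length form were level, with usage changes of -0.01 ± 0.11 for segment 24 and 0.06 ± 0.10 for segment 20. Segment 21, found in Cep85-209 alone, was counted at 19, 2, 9 and 3 and was too low to be tested. The changed features of Cep85 thus describe 1 exon, its entry junction and its flanking introns, while the junction of the full-length form changed by less than its standard error.

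**Figure D2:**
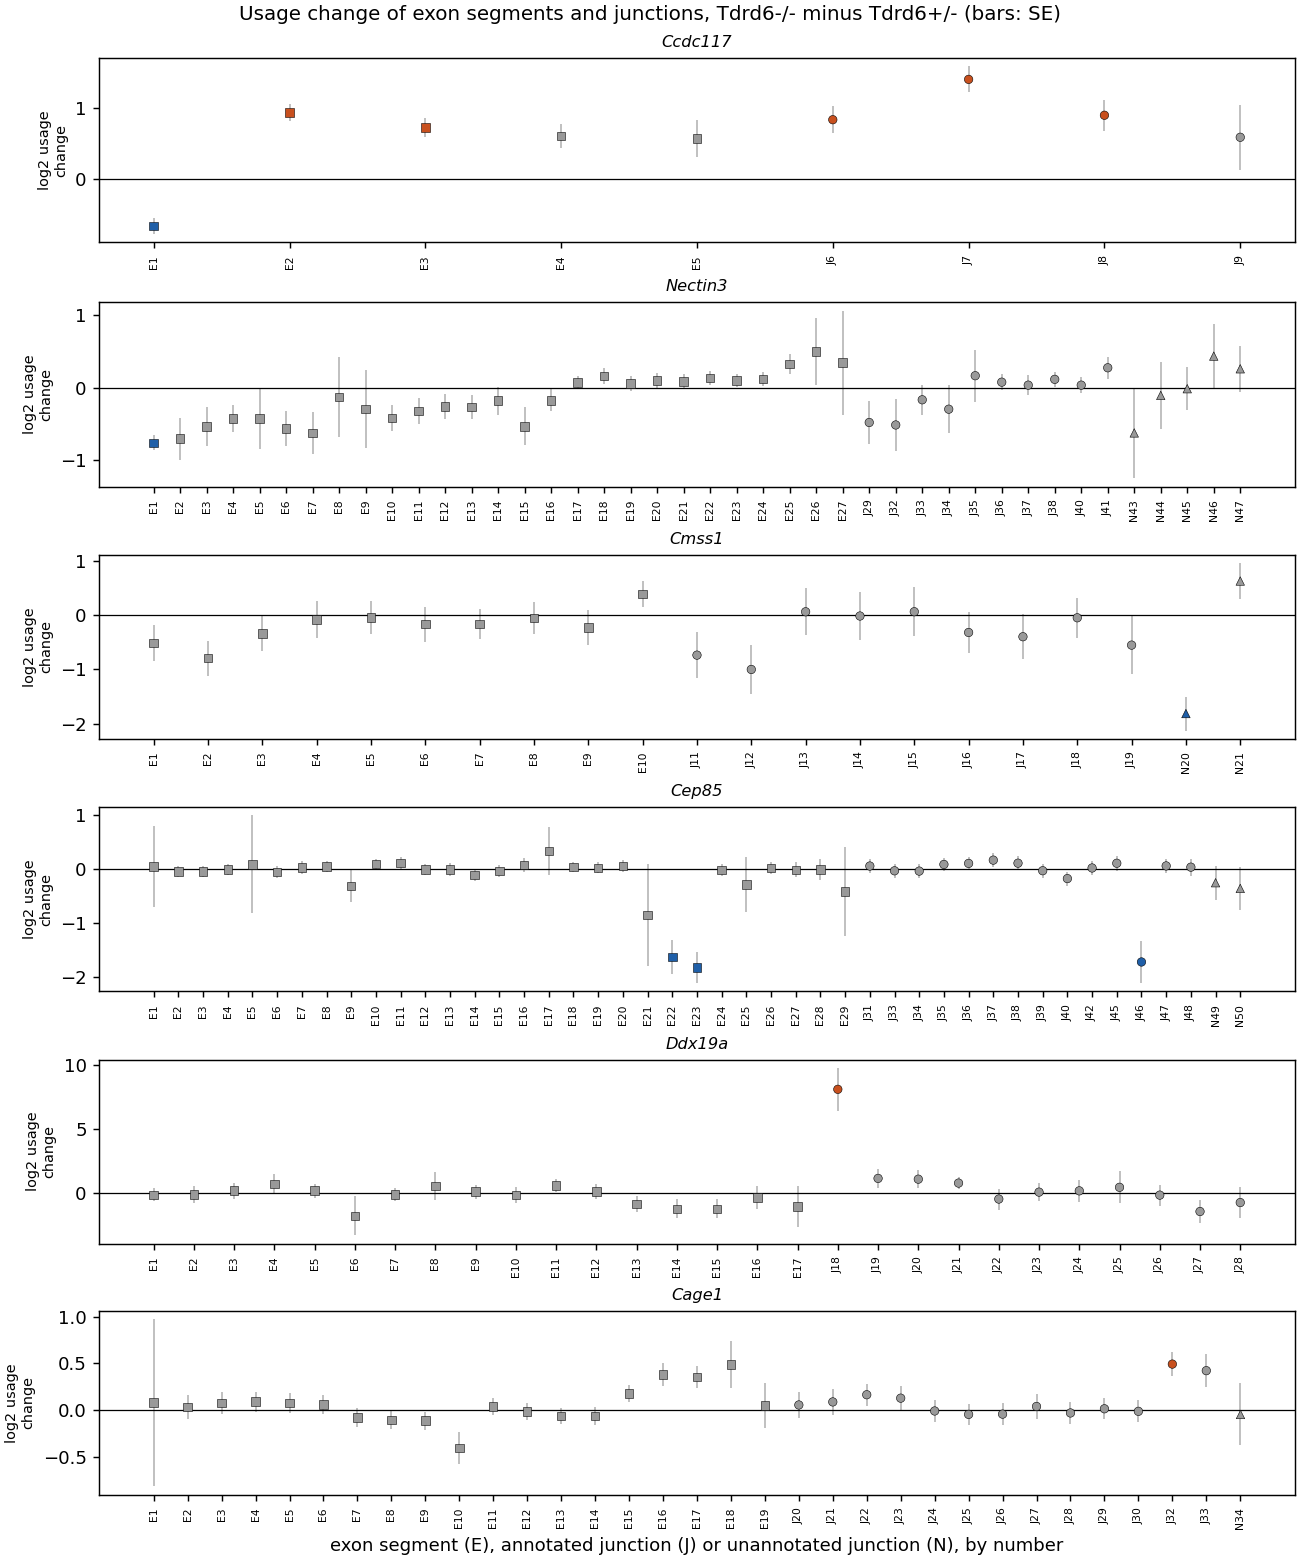
Usage change (y axis, log2, Tdrd6-/- minus Tdrd6+/-, bars are standard errors) of every exon segment (squares), annotated junction (circles) and unannotated junction (triangles) that entered the fit in the 6 genes, in order of number, with called features in orange when higher and blue when lower. Among the tested features of Cep85 only segments 22 and 23 and junction 46 are called, while Ccdc117 has its last exon at -0.67 and all other features above 0.

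Ccdc117 changed in a different way, as the profile plot shows. CCDC117 is a coiled-coil protein linked to the machinery that delivers iron-sulfur clusters to proteins. Its gene lies on chromosome 11 from 5528887 to 5542187 and has 1 annotated transcript, so no competing annotated form exists for its features to switch to. The gene was counted at 9346 and 7891 in Tdrd6+/- and 7800 and 8652 in Tdrd6-/-, a log2 fold change of -0.31 ± 0.14.

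Segment 1 is the last exon, 2647 bases from 5528887 to 5531533, of which 235 are coding. It was counted at 8657 and 7256 in Tdrd6+/- and 6836 and 7695 in Tdrd6-/-, which is 92.6%, 91.9%, 87.6% and 88.9% of the gene count. Raw counts overlapped between genotypes and shares did not. Because this exon makes up most of the gene's count, its share and the shares of the other features are not separate measures. The usage change was -0.67 ± 0.11, and the exon was the only feature of this gene below 0.

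The other features were all higher in Tdrd6-/-. Segment 2 was counted at 444 and 407 in Tdrd6+/- and 710 and 784 in Tdrd6-/-, with a usage change of 0.94 ± 0.13, and segment 3 rose by 0.73 ± 0.13. Junction 7, between these segments, was counted at 118 and 97 in Tdrd6+/- and 261 and 272 in Tdrd6-/-, a usage change of 1.41 ± 0.18 and the largest in the gene. Junctions 6 and 8 rose by 0.84 ± 0.19 and 0.90 ± 0.22. Segments 4 and 5 and junction 9 had changes of 0.61 ± 0.17, 0.57 ± 0.26 and 0.59 ± 0.46 and were not called. Segment 2 and junction 7 were called whichever sample was left out. Without the first Tdrd6+/- sample the calls of segment 3 and junctions 6 and 8 were lost, without the first Tdrd6-/- sample those of segments 1 and 3 and junction 8, and without the second Tdrd6-/- sample those of junctions 6 and 8. With the dispersion trend on the mean of feature and rest the calls of segments 1 and 3 and junctions 6 and 8 were lost.

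The balance of the last exon against the spliced RNA that leads into it summarises the gene. Per count of junction 6, which enters the last exon, segment 1 held 62.7 and 62.0 counts in Tdrd6+/- and 36.2 and 31.7 in Tdrd6-/-, with means of 62.4 ± 0.505 and 33.9 ± 3.18 (SD, n = 2). The Tdrd6+/- samples were nearly equal and both Tdrd6-/- samples lay near 0.54 of them. Set against the other introns of the gene, 0 of the 4 introns were called, with usage changes from -0.16 to 0.39. This measure cannot show a change that all introns share. Intron counts per gene count were 0.188 and 0.210 in Tdrd6+/- and 0.239 and 0.183 in Tdrd6-/-, so the genotypes overlapped. Over all genes the ratio was 0.527, 0.419, 0.425 and 0.306. Whether the introns followed the exons was not tested. Intron 1, next to the last exon, was counted at 498 and 458 in Tdrd6+/- and 524 and 431 in Tdrd6-/-. Over 2369 genes the median log2 ratio of 5′ to 3′ junction counts was -0.16 in both Tdrd6+/- samples and -0.12 in both Tdrd6-/- samples, and its part in this balance was not tested. The features of Ccdc117 therefore form 1 contrast, last exon against everything upstream, but not an exchange between annotated isoforms. Which RNAs supply the counts on the last exon without the junction before it was not tested.

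Nectin3 showed a contrast along its 3′ end. Nectins are adhesion molecules of the immunoglobulin family, and NECTIN3 on spermatids pairs with NECTIN2 on Sertoli cells. The gene lies on chromosome 16 from 46387706 to 46498525 and has 10 annotated transcripts with several alternative ends. It was counted at 17398 and 19478 in Tdrd6+/- and 19733 and 18271 in Tdrd6-/-, a log2 fold change of -0.19 ± 0.13.

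Segment 1 was the only called feature among the 34 tested. It is 7152 bases from 46387706 to 46394857, lies in the longest annotated transcript alone and holds no coding base. Its counts were 1657 and 1831 in Tdrd6+/- and 1118 and 1092 in Tdrd6-/-, or 9.52%, 9.40%, 5.67% and 5.98% of the gene. The 2 samples of each genotype were close to each other and the genotypes lay apart, with a usage change of -0.76 ± 0.10.

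Its neighbours pointed the same way without being called. All 16 segments from 1 to 16, which hold the alternative ends, had usage changes below 0, from -0.76 to -0.13, and all 11 fitted segments from 17 to 27 were above 0, from 0.06 to 0.49. Shares overlapped between genotypes in segments 5, 8, 9, 12, 14, 15 and 16, and in segments 18 to 21, 26 and 27. Segments 5, 8 and 9 were too low in counts to be tested. Segments share fragments and are set against the same gene, so their signs are not separate measures. Junction 29, which enters the long last exon, was counted at 55 and 77 in Tdrd6+/- and 45 and 52 in Tdrd6-/-, a change of -0.48 ± 0.30. Junction 32, one step upstream in the same transcript, was counted at 40 and 55 in Tdrd6+/- and 43 and 26 in Tdrd6-/-. Both Tdrd6-/- counts of junction 29 lay below both Tdrd6+/- counts, and it was not called. The counts of junction 32 overlapped and were too low to be tested.

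The splice choices that lead toward this end gave mixed values. Junction 36 leads from a shared donor into the end exon of the main form, Nectin3-201, and was counted at 1025, 1340, 1331 and 1213. Junction 35 leads from the same donor toward the exons of the longest form and was counted at 32 and 48 in Tdrd6+/- and 37 and 55 in Tdrd6-/-. Its share of the donor was 3.03% and 3.46% in Tdrd6+/- and 2.71% and 4.34% in Tdrd6-/-, so the genotypes overlapped. Further along, junction 32 came to 0.280 and 0.232 per count of junction 33 in Tdrd6+/- and 0.225 and 0.170 in Tdrd6-/-, so the Tdrd6-/- samples were lower by a small margin. Among the counts of the 3 end segments 1, 10 and 16, segment 1 held 48.8% and 56.0% in Tdrd6+/- and 42.5% and 45.1% in Tdrd6-/-, with means of 52.4% ± 5.05 and 43.8% ± 1.85 (SD, n = 2), and the genotypes lay apart. Closer ratios overlapped. Segment 1 came to 7.71 and 6.49 per count of segment 10 in Tdrd6+/- and 5.06 and 6.66 in Tdrd6-/-, and to 30.1 and 23.8 per count of junction 29 in Tdrd6+/- and 24.8 and 21 in Tdrd6-/-.

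Intronic RNA of Nectin3 moved as well. Intron counts per gene count were 0.835 and 0.502 in Tdrd6+/- and 0.442 and 0.353 in Tdrd6-/-, lower in both Tdrd6-/- samples, and over all genes the same ratio was 0.527, 0.419, 0.425 and 0.306. Per kb, segment 1 held 232, 256, 156 and 153 counts and the nearest long intron, intron 2, held 55.0, 37.8, 33.6 and 25.5. The segment was thus above the intron in every sample, and the part of intronic RNA in its change was not tested. The segments of Nectin3 describe less of the 3′ end in Tdrd6-/-, and its junction counts, of 26 to 77 at the steps next to it, were too low to place the difference in 1 splice choice.

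**Figure D3:**
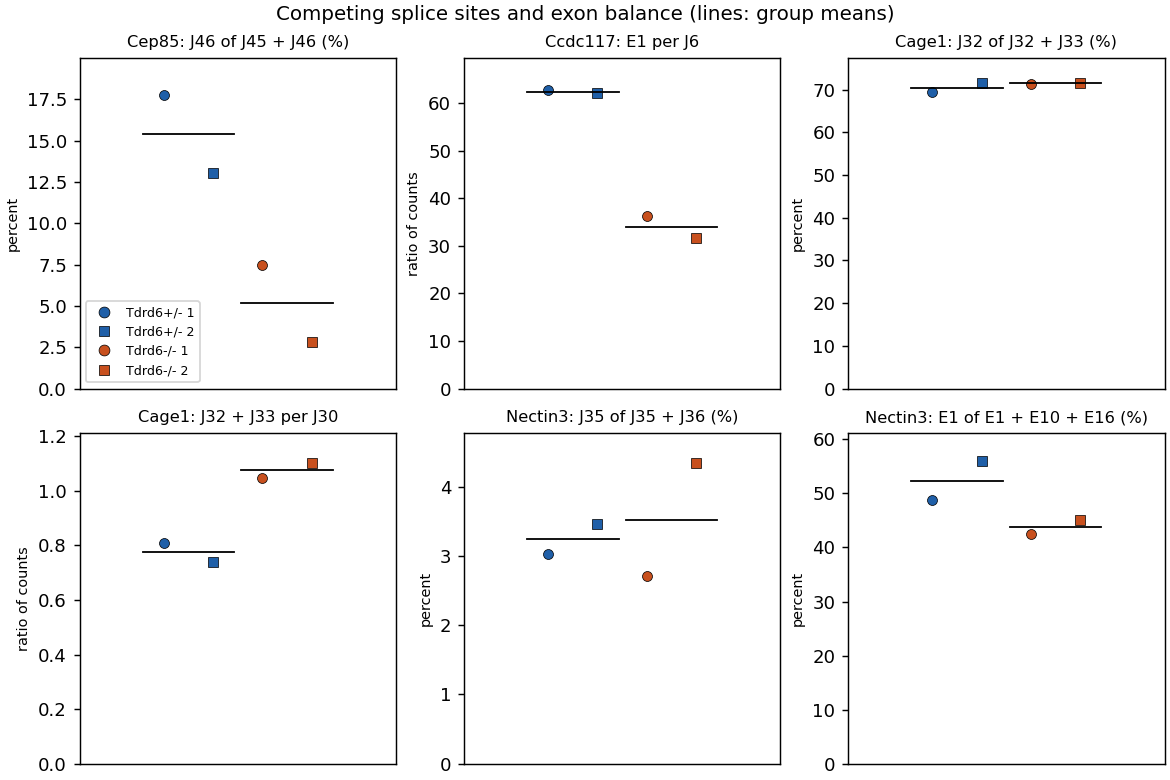
Ratios of counts in each sample, with lines at the group means and axes that start at 0. The share of Cep85 junction 46 and the Ccdc117 last exon per junction 6 were lower in both Tdrd6-/- samples, the choice between Cage1 junctions 32 and 33 stayed between 69.5% and 71.6%, and the share of Nectin3 junction 35 overlapped between genotypes.

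Cage1 changed at its 5′ end. Cage1 is a cancer/testis gene, expressed mainly in male germ cells. It lies on chromosome 13 from 38006052 to 38037069 and was counted at 14280 and 17915 in Tdrd6+/- and 20897 and 20959 in Tdrd6-/-, a log2 fold change of 0.15 ± 0.13. Junction 32 was the single called feature of 31 tested. It was counted at 285 and 359 in Tdrd6+/- and 590 and 579 in Tdrd6-/-, or 2.00% and 2.00% of the gene against 2.82% and 2.76%, with a usage change of 0.49 ± 0.13.

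Junction 33 reaches the same acceptor from a donor further upstream in the first exon. Its fragments numbered 125 and 143 in Tdrd6+/- and 237 and 230 in Tdrd6-/-, a change of 0.42 ± 0.18 that was not called. The 2 junctions therefore moved together, and junction 32 held 69.5% and 71.5% of their sum in Tdrd6+/- and 71.3% and 71.6% in Tdrd6-/-. As the plot of ratios shows, the choice between the donors overlapped between genotypes. What differed was the first step as a whole against the next. Junctions 32 and 33 together came to 0.810 and 0.740 per count of junction 30 in Tdrd6+/- and 1.05 and 1.10 in Tdrd6-/-, with means of 0.775 ± 0.0494 and 1.077 ± 0.0383 (SD, n = 2).

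Most segments of the first exon of Cage1 had values above 0 like the junctions. Segments 16, 17 and 18, in the first exon, changed by 0.38 ± 0.12, 0.36 ± 0.12 and 0.49 ± 0.25, and segment 15, the second exon, by 0.18 ± 0.09. Segment 19, the outermost part of the first exon, changed by 0.05 ± 0.24 and its shares overlapped between genotypes. None of these was called. Junction 30, which leaves the second exon, was counted at 506 and 678 in Tdrd6+/- and 788 and 733 in Tdrd6-/- and changed by -0.01 ± 0.12. Junction 31, which skips the second exon, was counted at 1, 3, 0 and 2, so no rise of a skipped form was detectable at this depth. Segment 10, the last exon of the form that skips the second exon, changed by -0.41 ± 0.17. Relative to junction 30 the first junctions were higher in both Tdrd6-/- samples, while the share of each first donor overlapped between genotypes. Junction 32 was not called when any 1 of the 4 samples was left out, with usage changes of 0.48 to 0.51, nor with the replicate block (0.49) or with the dispersion trend on the mean of feature and rest (0.49). In the reported fit no other feature of Cage1 was called, 0 of its 12 introns included. Usage changes of these introns were above 0 in 5 and below 0 in 7. Intron 2 was called, lower, with 10 iterations under either dispersion trend (-0.37 in both). Intron 12, between the first 2 exons, held 13.6% and 13.5% of the intron counts in Tdrd6+/- and 16.4% and 16.25% in Tdrd6-/-, a change of 0.32 ± 0.16.

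Ddx19a had the largest fitted value and the fewest reads. DDX19A is a DEAD-box helicase of the family that releases mRNA at the cytoplasmic side of the nuclear pore, and DDX19B is its close paralog. The gene lies on chromosome 8 from 110974996 to 110997800 and was counted at 109 and 105 in Tdrd6+/- and 93 and 101 in Tdrd6-/-, a log2 fold change of -0.38 ± 0.27. Per kb of exon its level was 1.19 ± 0.190 CPM and that of Ddx19b was 80.7 ± 9.30 CPM (SD, n = 4 samples).

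Junction 18, between the last 2 exons, was the only feature of Ddx19a deep enough to be tested. Its counts were 62 and 80 in Tdrd6+/- and 102 and 102 in Tdrd6-/-, that is 56.9% and 76.2% of the gene count against 109.7% and 101.0%. In Tdrd6-/- the junction thus held more fragments than the whole gene row, the rest of the gene was set to 0, and the fitted usage change of 8.09 ± 1.67 has no meaning as a size. The exons on either side of this junction held far fewer fragments than the junction itself. Segment 1 was counted at 22, 24, 18 and 20, and segment 2 at 14, 9, 8 and 11. Annotated junctions with at least 40 counts numbered 37395, in genes whose rows match the annotation in number. Of these, 28 (0.0749%) exceeded both flanking segments in all 4 samples. Among the 53 with that many counts in the 6 genes, junction 18 was the only one to do so.

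The spliced sequence around junction 18 is shared with the paralog. The 30 bases shown above for Ddx19a junction 18 and Ddx19b junction 15 are identical, and the match runs without a difference for 58 bases upstream and 217 bases downstream of the junction. Of the 11 annotated junctions of Ddx19a, numbers 18 to 21 have a 30-base window that also occurs in a Ddx19b transcript, and no junction window of the other 5 genes occurs in another gene. Reads that lie within this stretch therefore cannot be assigned to 1 of the paralogs by their sequence alone, and how the counting treated them is not given in the sources used here.

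The junction counts of Ddx19a were grouped along this line. The 4 junctions with a shared window summed to 102 and 108 in Tdrd6+/- and 154 and 154 in Tdrd6-/-, and each had a usage change above 0. The 7 junctions without one summed to 50 and 49 in Tdrd6+/- and 34 and 39 in Tdrd6-/-. Of these 7, 3 also had usage changes above 0, and the range was -1.47 to 0.42. In both groups of junctions only number 18 was deep enough to be tested, so the division is not a clean one. Junction 15 of Ddx19b was counted at 130 and 139 in Tdrd6+/- and 173 and 178 in Tdrd6-/-, and Ddx19a took 32.3%, 36.5%, 37.1% and 36.4% of the sum of both junctions. The median of the 10 other Ddx19b junctions with at least 40 counts was 250 and 262 in Tdrd6+/- and 361 and 376 in Tdrd6-/-, higher in both Tdrd6-/- samples as raw counts, and the Ddx19b total changed by 0.12 ± 0.14 (log2 fold change). Junction 18 is thus reported as uncertain between the paralogs.

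**Figure D4:**
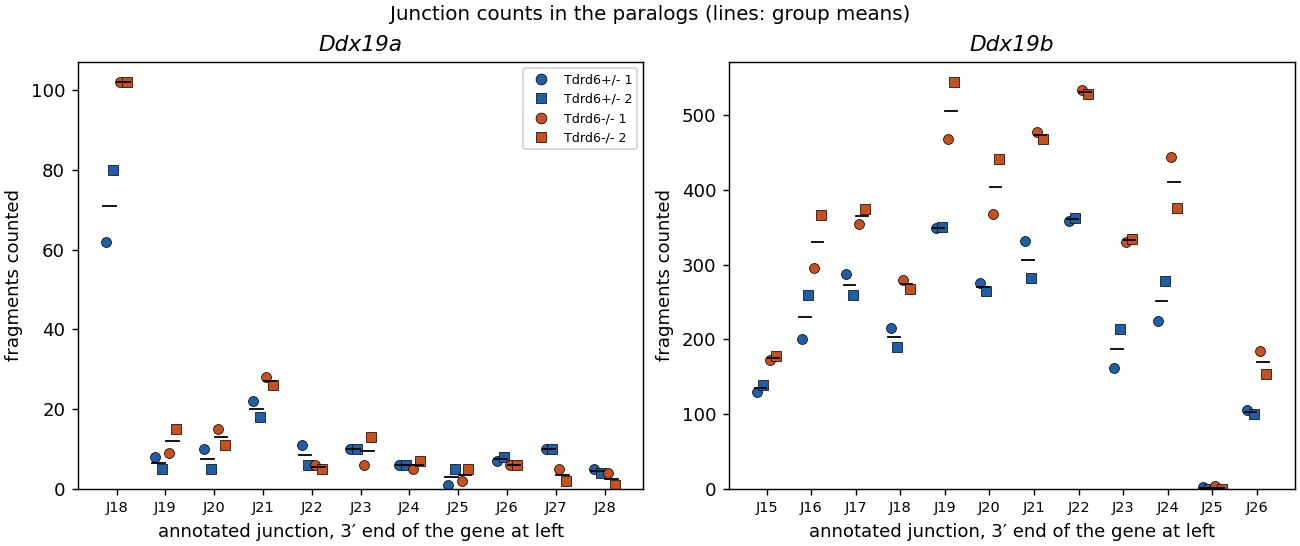
Fragments counted on each annotated junction of Ddx19a and Ddx19b (y axes, raw counts on different scales) in each sample, from the 3′ end of the gene at left, with lines at the group means. Ddx19a junction 18 stands at 62 to 102 while its other junctions stay at or below 28, and the Ddx19b junctions are higher in Tdrd6-/-, except number 25 with 0 to 3 counts.

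Cmss1 had its called features outside the annotated exons. The gene lies on chromosome 16 from 57302000 to 57606864. The numbers of its segments and junctions, 10 and 9, equal those of transcript Cmss1-201 alone, whose positions were used. All M21 transcripts of the gene together give 14 and 11. Its gene row held 297 and 261 in Tdrd6+/- and 330 and 360 in Tdrd6-/-, a log2 fold change of 0.07 ± 0.21. The called junction is number 20, which is not in the annotation, and the tables give no position for it. Its fragments numbered 83 and 93 in Tdrd6+/- and 31 and 50 in Tdrd6-/-, or 27.9% and 35.6% of the gene against 9.39% and 13.9%, a usage change of -1.81 ± 0.31. It had no adjusted p without the first Tdrd6+/- sample and was not called with the dispersion trend on the mean of feature and rest.

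The other unannotated junction of Cmss1, number 21, was counted at 47 and 28 in Tdrd6+/- and 65 and 67 in Tdrd6-/-, a change of 0.62 ± 0.33 that was not called. Of the sum of both, junction 20 held 63.8% and 76.9% in Tdrd6+/- and 32.3% and 42.7% in Tdrd6-/-. The genotypes lay apart in this share. Whether the junctions compete for 1 splice site cannot be told without their positions. No annotated segment of Cmss1 was called, and its 9 annotated junctions were too low in counts to be tested. These segments and junctions changed by between -1.001 and 0.38. The lowest value was that of junction 12, counted at 32 and 25 in Tdrd6+/- and 18 and 19 in Tdrd6-/- (-1.001 ± 0.45). Whether the annotated splicing of Cmss1 changed is therefore not settled by these calls.

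The long first intron of Cmss1 moved with junction 20. It is numbered 9, spans 283122 bases from 57323544 to 57606665, and contains Filip1l on the opposite strand. Its counts were 7918 and 9668 in Tdrd6+/- and 4309 and 4916 in Tdrd6-/-, a usage change of -0.97 ± 0.23. The call was lost without either Tdrd6+/- sample, without the first Tdrd6-/- sample, and with the dispersion trend on the mean of feature and rest. Junction 19, which spans the intron, was counted at 17, 19, 16 and 15. The intron held 97.5% or more of the intron counts of the gene in every sample, so its usage is measured against a small remainder. Intron counts per gene count were 27.0 and 37.4 in Tdrd6+/- and 13.4 and 13.9 in Tdrd6-/-, a far higher ratio than in the other 5 genes. The libraries were made with a directional kit, the strand used in counting is not given, and so RNA of a gene inside the intron and of Cmss1 itself cannot be told apart here. Filip1l was counted at 89 and 152 in Tdrd6+/- and 117 and 113 in Tdrd6-/-, and these counts overlapped between genotypes.

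**Figure D5:**
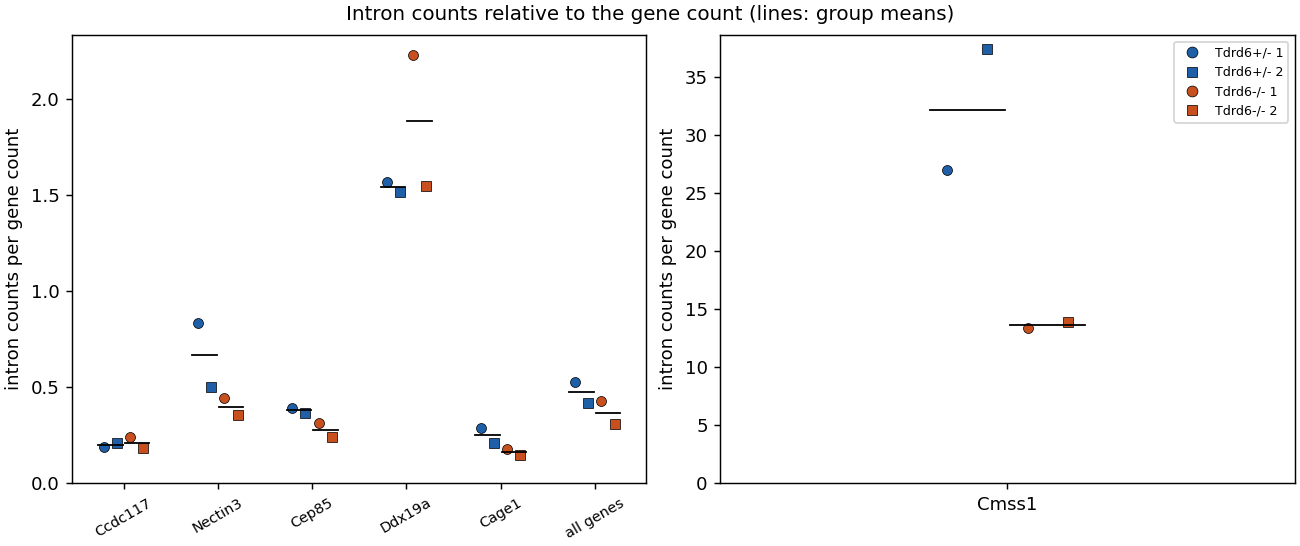
Intron counts per gene count (y axes, ratio) in each sample for 5 of the genes and all genes at left and for Cmss1 on its own scale at right, with lines at the group means. The ratio was lower in both Tdrd6-/- samples for Nectin3, Cep85, Cage1 and Cmss1, and overlapped between genotypes for Ccdc117, Ddx19a and all genes together. The value for all genes is a pooled sum. The share of single genes with genotypes apart is not given, so nothing is read from the number of genes here.

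Partners of these genes were read for comparison of expression only. Of the 5 genes of mRNA export around Ddx19a, Gle1, Nup214 and Nxf1 were counted only in rows merged with an overlapping gene, and Ddx19b and Ddx25 changed by 0.12 ± 0.14 and 0.10 ± 0.13, neither called. Among the nectin genes and their partners, Afdn, Nectin2 and Cadm1 changed by -0.34 ± 0.13, 0.17 ± 0.24 and 0.06 ± 0.14, none called. Of the 4 tested, 2 were under an unadjusted p of 0.05 and 1 was called, lower, beside 3.78% lower among all genes. This was Nectin1, an adhesion molecule that pairs with NECTIN3, at 2.65 ± 0.617 CPM in Tdrd6+/- and 1.26 ± 0.123 CPM in Tdrd6-/- (SD, n = 2). Its log2 fold change was -1.08 ± 0.33 from counts of 37 to 86, called by edgeR's test and not by DESeq2. Among the centrosome partners of Cep85, Cep85l, Plk4 and Nek2 changed by -0.29 ± 0.14, -0.18 ± 0.13 and 0.09 ± 0.13, none called. Of the 4, 2 were under an unadjusted p of 0.05 and 1 was called, lower, beside the same 3.78% of all genes. This was Stil, the centriole duplication factor, at 125 ± 10.5 CPM in Tdrd6+/- and 87.6 ± 8.35 CPM in Tdrd6-/-, a log2 fold change of -0.51 ± 0.14. The 3 genes of iron-sulfur delivery around Ccdc117, Ciao1, Ciao2b and Mms19, changed by 0.25 ± 0.16, 0.29 ± 0.22 and -0.23 ± 0.17, and none was called or was under an unadjusted p of 0.05. The share of all genes under that unadjusted p is not given here, so nothing is read from the counts under it.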

How the data were processed

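Counts in the deposited tables are raw fragment counts. Read pairs had been placed on mm10 by GSNAP with Ensembl 75 gene models, and the authors counted genes, exon segments and junctions in 1 file and introns in another. The submitters' processing notes name bcl2fastq 1.8.4. The counting program and its strand setting are not given in the sources used here. The authors used DEXSeq and JunctionSeq, which were not installed. Their model was refitted in R 4.3.3 (DESeq2 1.42.0) to every feature of 10 or more counts beside the rest of its gene. For introns the rest was the gene's other introns. Terms were sample plus feature plus feature by genotype, with a likelihood ratio test and independent filtering on the mean count. Adjustment was by Benjamini-Hochberg at a false discovery rate of 0.1, with merged genes left out for exons and junctions. The dispersion trend followed the feature's own mean, with 1 iteration between mean and dispersion. This form was settled after the calls under 4 forms had been seen. It was modelled on earlier processing of these data, whose count of exon and junction calls it did not return, for a reason not found. DEXSeq is understood to use the same trend with 10 iterations, so the reported form is not the one closest to the authors' tool, and it makes fewer calls. The other 3 forms, 2 of them with 10 iterations, are given among the alternatives. For gene totals, edgeR's quasi-likelihood test (4.0.16) followed filterByExpr and TMM. All fits covered the whole table.

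Positions came from GENCODE M21 (GRCm38), where the number of segments and junctions matched in 24971 of 36778 genes counted alone. The genes and lists were chosen with earlier results of these data known. Named were the 6 genes, Tdrd6, a list of partners, and in each gene the called features, the one with the smallest adjusted p and its neighbours. Further features of these genes and of Ddx19b, and the ratios between features, were added after values were seen. P-values were used for calls only. They test the genotype term with 2 pooled samples per genotype, and the dispersion behind them is drawn toward a trend over many features or genes. Scripts were tested on simulated data. Alternatives were edgeR, TMM factors, no count minimum, the replicate block, and leaving out each sample. A crossed pairing and the 3 other forms of the fit were added after the data were seen.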

Additional observations from a re-analysis of the deposited data

How the results depend on the processing

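The counts of called features depended on the samples and on how the dispersion was fitted. Leaving out 1 sample at a time gave 5 to 14 segments and junctions of the 6 genes against 13, and 0 to 2 introns against 3, with 0 introns without Tdrd6+/- 1 and 1 without Tdrd6+/- 2 or Tdrd6-/- 2. No gene total was called except Ccdc117 without Tdrd6+/- 2 (1 gene, log2 fold change -0.46), a range of 0 to 1. 3 further forms of the fit were added after the data were seen, and calls under them were known when the reported form was kept. With 10 iterations 20 segments and junctions and 8 introns were called, with the dispersion trend on the mean of feature and rest 7 and 0, and with both 19 and 7. Over all genes the reported form called 324 segments and junctions and 561 introns, and these 3 forms called 1982 and 1855, 62 and 1, and 1576 and 1418. With 1 sample left out, the log2 fold change of the gene total ran from -0.06266 to 0.22 for Cmss1 and from -0.006042 to 0.13 for Cep85. Gene totals changed sign for Cmss1 (-0.06266) and Cep85 (-0.006042) without Tdrd6+/- 2 and for Cep85 (-0.002013) without Tdrd6-/- 2, all within their errors. The labels do not say whether samples of equal replicate number were handled together. Deviations of equal numbers correlated at -0.108 over 12347 genes and 0.0492 over 44784 introns. With 2 samples a genotype, these values cannot settle whether the numbers pair the samples. The replicate block called 11 segments and junctions and 3 introns, and over all genes 304 and 881. A crossed pairing, added after the data were seen, called 12 and 2. The cause of these differences was not tested. Depth limited Ddx19a most, where 1 of 28 segments and junctions could be tested, and 2 samples a genotype allow no exact permutation p below 0.33.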
